A study of Mus musculus with 20 samples.

Results

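The Notch pathway was read here through 10 genes: the receptors Notch1, Notch2, Notch3 and Notch4, the ligands Jag1, Jag2 and Dll1, and the target genes Hes1, Hey1 and Heyl. They were picked out by symbol, with no threshold on their values, from the 54986 genes of the deposited table. Of the 10 genes, 7 passed the filter on low values (1 CPM, the counts-per-million unit, in 2 or more of the 20 libraries), as did 17106 genes in all. Notch3, Dll1 and Heyl did not pass it and are described by their values alone.

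Notch receptors are single-pass proteins that are bound by Jagged or Delta ligands on a neighbouring cell. Binding exposes the receptor to an ADAM protease and then to gamma-secretase, which frees its intracellular part to enter the nucleus and join the DNA-binding protein RBPJ and Mastermind coactivators at target genes. Hes and Hey genes, which encode transcriptional repressors of the basic helix-loop-helix type, are the best known targets. In the mammary gland the pathway takes part in the choice of luminal fate, and TGFβ signaling is known to meet it during epithelial-mesenchymal transition (EMT), in which epithelial cells lose their junctions and become mobile.

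All samples were NMuMG, an epithelial line of normal mouse mammary origin, or cells made from it, with 2 libraries in each of 10 groups. In the first set, NMuMG denotes the parental cells, NMuMG TGFb the same cells given TGFβ (the labels state neither dose nor duration), and E1KD cells carrying a short hairpin RNA (shRNA) against hnRNP E1, the RNA-binding protein encoded by Pcbp1. M1P and L1P cells carry that shRNA too and come from the primary tumor and the lung metastases that E1KD cells formed in NOD/SCID mice, which lack lymphocytes and keep myeloid and stromal cells; by the study's methods they were isolated and grown in culture, and they express a puromycin resistance gene by which they can be selected. In the second set, Empty vector denotes NMuMG with an empty expression vector, and Platr18 clone 12 and clone 16 are a single clone each that overexpresses the long noncoding RNA Platr18 (Lncenc1 in the table). E1KD SCR cells carry the shRNA against hnRNP E1 with a scrambled shRNA, and E1KD Platr18 KD cells carry it with an shRNA against Platr18. The labels do not say whether replicates were separate cultures, so the p-values below measure the spread between these libraries, which may be technical.

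The sets were 2 kinds of library: the mitochondrial ribosomal RNA mt-Rnr2 lay between 333 and 492 CPM in the 10 libraries of the first and between 114000 and 165000 CPM in the 10 of the second. Every comparison except 1 was therefore made within a kind. The values had been scaled to between 50.8 M and 147.3 M reads per library, so that 3 reads on a gene were worth 0.0204 to 0.0590 CPM. Pcbp1 was at 287 and 312 CPM in NMuMG against 16.6 and 14.2 CPM in E1KD, and the second kind gave 32.3 CPM in both Empty vector libraries against 3.28 and 3.46 CPM in E1KD SCR. Platr18 averaged 3.37 CPM in Empty vector, 3094 CPM in clone 12, 816 CPM in clone 16 and 3.01 CPM in E1KD SCR, and it was at 0.153 CPM where it was silenced. The E1KD libraries stood apart, with a median log2 difference between replicate 1 and replicate 2 of 0.29 over the tested genes. For the other 9 groups the size of that median was at most 0.067. E1KD replicate 1 summed to 728645 CPM over all genes and replicate 2 to 567409 CPM. The other libraries of the first kind summed to between 547491 and 581384 CPM, so that replicate 1 was the one set apart. In E1KD against NMuMG the median of all tested genes lay at 0.17 on the log2 scale, and in M1P against E1KD at -0.17. Rescaling the libraries to equal sums brought these medians to 0.04 and -0.04, and member values that depend on this are given in both ways. Without E1KD replicate 1 the same medians were 0 and -0.009, and without E1KD replicate 2 they were 0.33 and -0.32. Of 7 epithelial markers, 5 or 6 were at 1 CPM or more in every group, but Epcam was near 0 throughout. The 7 summed to 2954 to 3007 CPM in NMuMG, 1754 to 2079 CPM with TGFβ and 2833 to 3972 CPM in E1KD. Their sums were 2929 to 2979 CPM in M1P and 1830 to 1849 CPM in L1P. In the second kind they were 3220 to 3550 CPM in Empty vector, 3840 to 4432 CPM in clone 12 and 3663 to 3758 CPM in clone 16. E1KD SCR had 2581 to 2844 CPM and E1KD Platr18 KD 2253 to 2295 CPM. The 7 endothelial markers summed to between 0.0189 and 0.628 CPM in any library, and the 6 immune markers to between 2.46 and 7.23 CPM. The 6 mesenchymal markers, Vim, Fn1 and Cdh2 among them, summed to 535 to 556 CPM in NMuMG, 1390 to 1605 CPM with TGFβ and 1349 to 1831 CPM in E1KD, and in the second kind to 656 to 695 CPM in Empty vector and 767 to 832 CPM in E1KD SCR. They summed to 1444 to 1447 CPM in M1P and 1484 to 1489 CPM in L1P. The sums were 814 to 917 CPM in clone 12, 868 to 910 CPM in clone 16 and 520 to 530 CPM in E1KD Platr18 KD. The part of these marker differences in the results below was not tested.

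The 10 genes lie on GRCm38 as follows, from the start in the table to its stop less 1, which is the end given by the GENCODE M21 annotation for every member but Notch3. Notch1 (ENSMUSG00000026923.15) occupies chr2:26457903-26516663 on the minus strand, Notch2 (ENSMUSG00000027878.11) chr3:98013527-98150361 on the plus strand, Notch3 (ENSMUSG00000038146.7) chr17:32120820-32166880 on the minus strand and Notch4 (ENSMUSG00000015468.14) chr17:34564268-34588503 on the plus strand. Among the ligands, Jag1 (ENSMUSG00000027276.7) occupies chr2:137081456-137116644, Jag2 (ENSMUSG00000002799.6) chr12:112907819-112929776 and Dll1 (ENSMUSG00000014773.13) chr17:15367354-15376872, all on the minus strand. Among the targets, Hes1 (ENSMUSG00000022528.8) occupies chr16:30064384-30067796 on the plus strand, Hey1 (ENSMUSG00000040289.8) chr3:8663359-8667256 on the minus strand and Heyl (ENSMUSG00000032744.4) chr4:123233556-123249875 on the plus strand. All are protein-coding genes. Notch1 and Notch2 share bases with other annotated genes, the most abundant of which were an antisense transcript of Notch1, RP23-306D20.11, at no more than 1.11 CPM, and RP23-3C4.2 inside Notch2, at no more than 6.61 CPM. Whether reads were counted by strand is not given in the sources used here.

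RefSeq promoter windows (GRCm38.p6, 250 bases before to 50 bases after a start) were found for 7 of the 10 members. The bases upstream of the start of 1 GENCODE transcript each are printed for Notch1, Notch2 and Jag1, the most abundant receptors and ligand, which separated under TGFβ as described below. These were chosen after their values were seen. They are written 5′ to 3′ on the strand of the gene, with matches to the motifs searched in capitals.
Notch1, chr2:26503823-26504072, minus strand: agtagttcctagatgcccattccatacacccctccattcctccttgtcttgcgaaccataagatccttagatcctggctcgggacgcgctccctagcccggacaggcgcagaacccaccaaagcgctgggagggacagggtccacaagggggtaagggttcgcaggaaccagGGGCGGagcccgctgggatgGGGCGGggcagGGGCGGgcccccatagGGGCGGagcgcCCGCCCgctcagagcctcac
Notch2, chr3:98013288-98013537, plus strand: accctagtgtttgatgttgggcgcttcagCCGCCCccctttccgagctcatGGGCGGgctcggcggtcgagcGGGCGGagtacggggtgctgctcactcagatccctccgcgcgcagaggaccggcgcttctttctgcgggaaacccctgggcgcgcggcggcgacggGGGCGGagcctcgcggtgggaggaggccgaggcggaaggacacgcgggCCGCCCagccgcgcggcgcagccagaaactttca
Jag1, chr2:137116645-137116770, minus strand: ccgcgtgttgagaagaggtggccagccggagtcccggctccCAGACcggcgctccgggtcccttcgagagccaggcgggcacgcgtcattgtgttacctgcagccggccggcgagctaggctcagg
The window of Jag2 lies within its annotated transcript and is not printed. The printed Notch1 bases lie inside the annotated span of the gene, which begins further upstream with another transcript, and the 3′ end of the printed Notch2 bases overlaps the start of a second Notch2 transcript. The motifs searched on both strands were the RBPJ core TGGGAA, the SMAD box CAGAC, the E-box CAGGTG and the GC box GGGCGG, and no motif contains another. The GC box matched 5 times upstream of Notch1 and 5 times upstream of Notch2 but not upstream of Jag1, and the SMAD box matched once, upstream of Jag1. The bases searched were 250 for Notch1, 250 for Notch2 and only 126 for Jag1, so that these counts are not on equal lengths. All 3 are also shorter than the windows of the shares that follow. Of 32851 RefSeq windows of 300 bases, 35.7% held a GC box, 49.6% a SMAD box, 25.6% an RBPJ core and 20.2% an E-box. A match describes letters only and says nothing of binding.

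Per kilobase of the longest protein-coding transcript, Notch2 was the most abundant receptor in 9 of the 10 groups, Jag1 the most abundant ligand and Hes1 the most abundant target in all 10. In NMuMG the levels were 9.33 CPM per kilobase for Notch2, 3.11 for Notch1 and 0.148 for Notch4, 10.9 for Jag1 and 1.78 for Jag2, and 13.6 for Hes1 and 2.06 for Hey1. In E1KD Platr18 KD the order of the receptors was turned, with Notch1 at 4.79 and Notch2 at 3.83 CPM per kilobase.

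**Figure D1:**
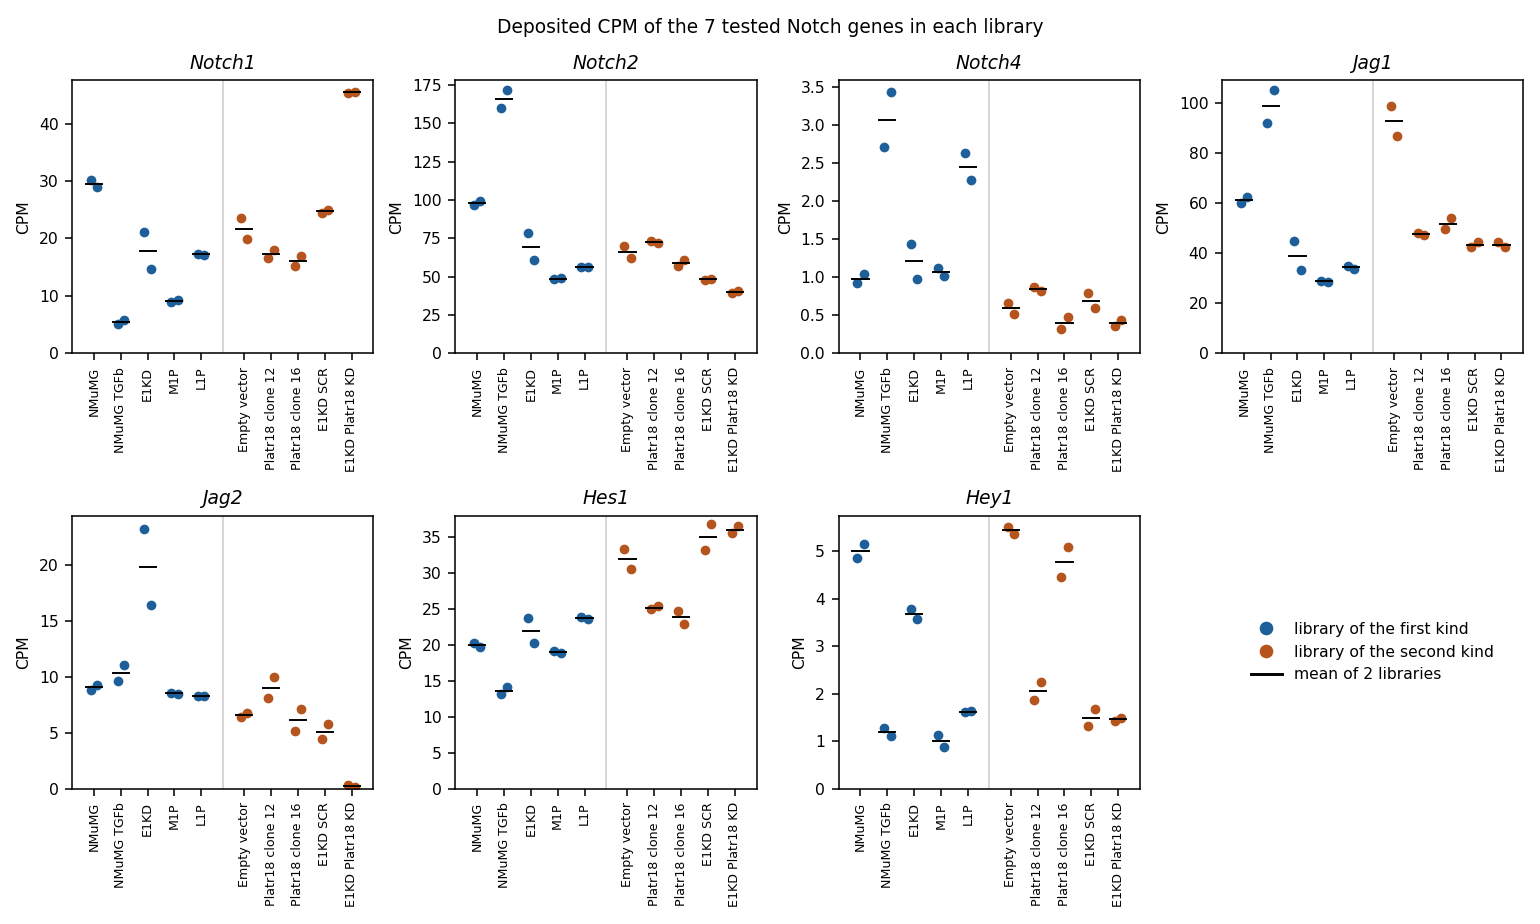
Deposited CPM (linear axis from 0) of the 7 tested genes in each of the 20 libraries; points are libraries, black bars the mean of 2, blue the first kind of library and orange the second. Notch1 is lowest in NMuMG TGFb (5.12 and 5.76 CPM) among the blue points and highest in E1KD Platr18 KD (45.4 and 45.5 CPM) among the orange, where Jag2 is at 0.326 and 0.177 CPM.

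The 3 remaining genes were near the detection limit. Heyl had at most 1 read in any library. Notch3, a receptor best known from vascular smooth muscle, exceeded the value of 3 reads in 5 libraries: E1KD at 0.331 and 0.129 CPM, E1KD SCR at 0.135 and 0.0794 CPM, and replicate 1 of E1KD Platr18 KD at 0.0339 CPM. The E1KD Platr18 KD libraries were the deepest, at 147.3 M and 146.8 M reads, where 3 reads were worth 0.0204 CPM. In the other groups of the second kind 3 reads were worth 0.0406 CPM or more, and 0.0339 CPM would lie under that value. M1P and L1P, which carry the shRNA against hnRNP E1 too, had at most 1 Notch3 read in each of their libraries. Dll1, a Delta-type ligand, exceeded the value of 3 reads in 4 libraries. It was at 0.105 and 0.160 CPM in M1P and at 0.216 and 0.251 CPM in L1P. In the other 16 it was at or under the value of 3 reads.

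A tested gene was called when its unadjusted p was under 0.001 and its log2 fold change of CPM + 1 at least 1 in size, in a limma fit of all 20 libraries; adjusted p-values are by Benjamini-Hochberg over the 17106 genes. The verbs rose and fell are kept for called genes. With TGFβ, 1 of the 7 tested members rose and 2 fell, where 5.85% of all tested genes rose and 7.66% fell (13.5% called). In E1KD against NMuMG 1 rose and 0 fell, against 6.44% and 2.99% of all tested genes (9.44% called). From E1KD to M1P 0 rose and 2 fell, against 1.16% and 2.43% (3.59% called), and from M1P to L1P 0 were called, against 0.742% up and 0.468% down (1.21% called). In E1KD SCR against Empty vector 0 rose and 2 fell, against 2.91% and 3.07% of all tested genes (5.98% called). Silencing of Platr18 in these cells gave 0 members up and 1 down, against 0.485% and 0.994% (1.48% called). No member was called in the Platr18 clones against Empty vector, where 0.427% of all tested genes rose and 1.03% fell (1.46% called), nor in clone 16 against clone 12, where 2.71% were higher and 1.68% lower (4.38% called). By the unadjusted limma p alone, 6 members were under 0.05 in L1P against M1P, 4 in the clones against Empty vector and 4 between the clones. At least 18.5%, 28.8% and 42.5% of all tested genes were under that limit too. Those shares had an adjusted p under 0.05, and an adjusted p is never below the unadjusted p.

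An adjusted p under 0.05 alone was reached by much of the transcriptome, so that a member that meets it is not thereby set apart. It held for 56.6% of all tested genes and 5 of the 7 members in E1KD against NMuMG, for 55.4% and 6 members with TGFβ, for 49.1% and 5 members in M1P against E1KD, and for 18.5% and 4 members in L1P against M1P. In the second kind of library it held for 42.6% of all tested genes and 3 members in E1KD SCR against Empty vector, for 19.5% and 2 members with Platr18 silencing, for 28.8% and 4 members in the clones, and for 42.5% and 4 members between the clones.

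**Figure D2:**
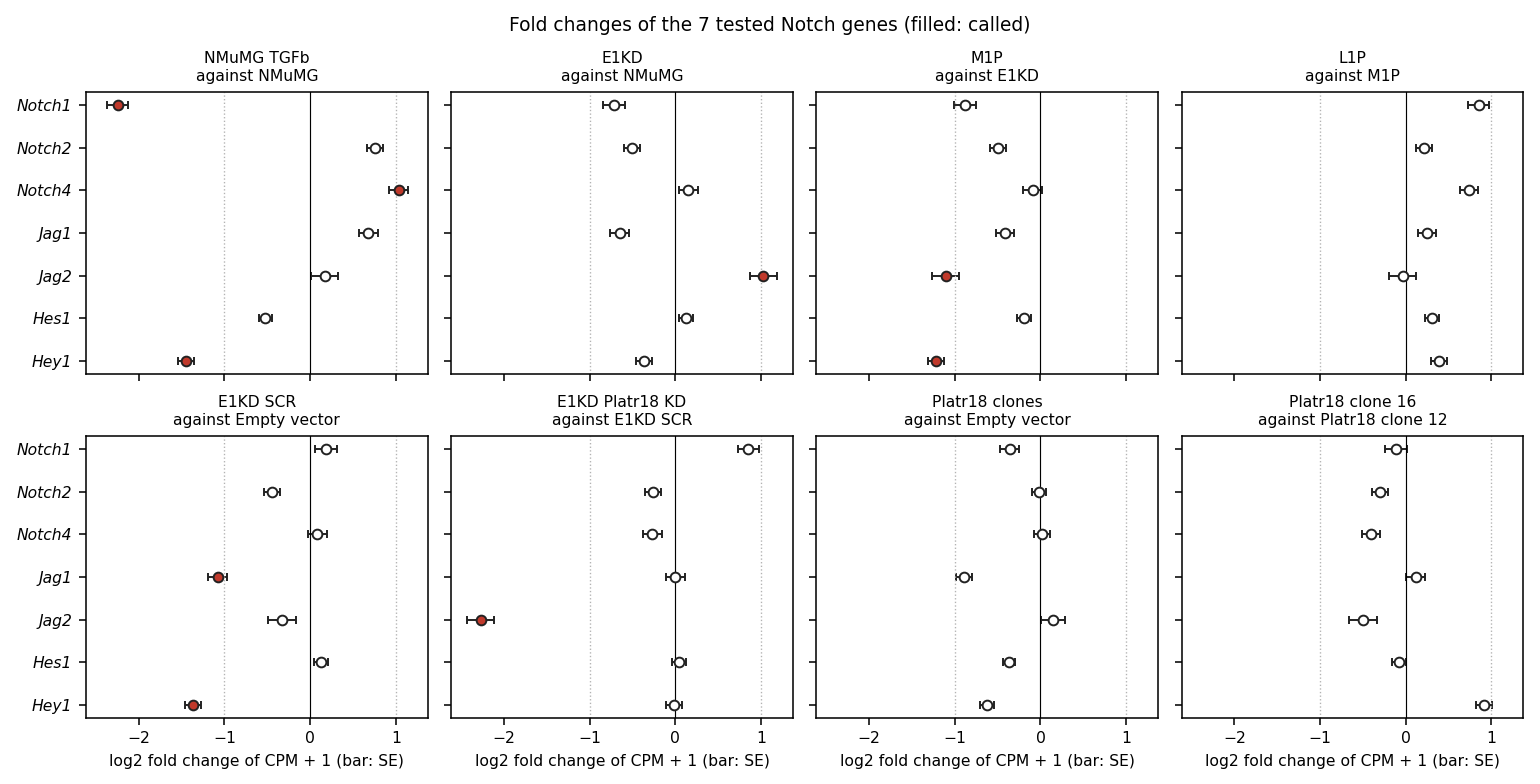
Log2 fold changes of CPM + 1 (points) with their SE from limma (bars) for the 7 tested genes in the 8 comparisons; filled points are called and dotted lines mark a log2 fold change of 1 in size. Notch1 after TGFβ (-2.25) and Jag2 after Platr18 silencing (-2.27) lie farthest from 0.

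The receptors moved apart after TGFβ. Notch1, which is best known from T cell and epithelial fate decisions, fell from 30.2 and 28.9 CPM in NMuMG to 5.12 and 5.76 CPM in NMuMG TGFb, 5.43-fold lower in the means (log2 fold change -2.25, SE 0.12, adjusted p = 1.29e-09). The groups did not overlap. In bulk RNA, fewer cells that express a gene and less of its RNA per cell cannot be told apart. Notch4, best known from endothelial cells, rose from 0.920 and 1.04 CPM to 2.70 and 3.43 CPM (log2 fold change 1.03, SE 0.11, adjusted p = 1.43e-06). This call was lost without NMuMG replicate 1 (0.99), without NMuMG TGFb replicate 2 (0.91) and with only the compared groups fitted. The 7 endothelial markers summed to 0.200 to 0.250 CPM in the NMuMG TGFb libraries and to 0.0189 to 0.0708 CPM in NMuMG, none at 1 CPM. Of these, Cdh5 was at 0.150 and 0.133 CPM with TGFβ (9 and 8 reads) against 0.0177 and 0 CPM, Pecam1 at 0.0501 and 0.0666 CPM against 0.0354 and 0.0189 CPM, and Tie1 at 0 in both NMuMG TGFb libraries. The 6 immune markers summed to 6.47 to 7.23 CPM with TGFβ and to 2.73 CPM in both NMuMG libraries, most of it from Csf1r, which rose from 1.13 and 1.28 CPM to 4.45 and 4.76 CPM (adjusted p = 1.83e-07), and Cd68, at 1.94 and 2.35 CPM against 1.06 and 1.11 CPM (adjusted p = 6.40e-04, not called). Lyz2, another of the 6, went the other way, at 0.0501 and 0.0833 CPM with TGFβ against 0.4425 and 0.3206 CPM in NMuMG. Adgre1 was at 0, Ptprc at no more than 2 reads and Itgam at no more than 3 reads. The part of either list in these results was not tested. Notch2 was higher with TGFβ, at 160 and 172 CPM against 96.7 and 99.2 CPM, a difference under the limit of the call (log2 fold change 0.75, SE 0.09, adjusted p = 8.02e-06). Because a ratio within a library does not depend on its scaling, the 2 main receptors were also set against each other. Notch2 exceeded Notch1 per kilobase 2.90 and 3.10 times in the NMuMG libraries and 28.3 and 26.9 times in those with TGFβ.

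Silencing of hnRNP E1 gave another pattern. Notch1 was at 21.04 and 14.71 CPM in E1KD, below both NMuMG libraries, and its log2 fold change of -0.71 (SE 0.12, adjusted p = 2.35e-04) stayed under the limit of the call; with equal sums it was -0.89. Notch2 was also lower in E1KD, at 78.2 and 60.8 CPM (log2 fold change -0.50, SE 0.09, adjusted p = 4.28e-04; -0.68 with equal sums). Notch4 did not pass a test there, with 1.44 and 0.979 CPM (adjusted p = 0.256). In the other pair of lines, E1KD SCR and Empty vector, Notch2 was lower as well, at 48.0 and 48.4 CPM against 70.3 and 61.9 CPM (log2 fold change -0.44, adjusted p = 1.52e-03). Notch1 was at 24.5 and 24.9 CPM against 23.5 and 19.9 CPM there (log2 fold change 0.18, adjusted p = 0.265). The difference between the Notch1 effects of the 2 pairs of lines was -0.90 (SE 0.18, adjusted p = 2.15e-03), short of the call, and it passed the call with equal sums at -1.10. This contrast is the only one across the kinds of library, and the lines of the second kind carry an additional vector, so that line, vector and kind of library cannot be told apart in it.

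Set directly against NMuMG TGFb, a contrast in which the NMuMG libraries have no part, E1KD had 3.29-fold more Notch1 (log2 fold change 1.53, adjusted p = 6.09e-08) and 2.39-fold less Notch2 (log2 fold change -1.26, adjusted p = 2.44e-08). Here 2 of the 7 members were called higher and 2 lower, against 17.2% and 6.17% of all tested genes (23.3% called), and all 7 had an adjusted p under 0.05, as did 71.5% of all tested genes. Notch1 and Notch2 stayed called under equal sums (1.38 and -1.44) and without E1KD replicate 1 (1.29 and -1.43). With only the compared groups fitted, which leaves fewer libraries to estimate the spread, both lost their call, as did Jag1, and 1 of the 4 members, Hey1, kept it.

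Notch1 and Notch2 were lower in the cells from the primary tumor than in E1KD, and Notch1 and Notch4 were higher in the cells from the lung metastases than in those from the tumor. Notch1 was at 9.002 and 9.209 CPM in M1P (log2 fold change against E1KD -0.88, adjusted p = 7.61e-05) and at 17.3 and 17.1 CPM in L1P (log2 fold change against M1P 0.85, adjusted p = 2.50e-04). Neither difference was called, and the first was -0.72 with equal sums and -0.64 without E1KD replicate 1. Without E1KD replicate 2 it was -1.12 and passed the call. Notch4 was at 1.12 and 1.01 CPM in M1P, and L1P had 2.63 and 2.27 CPM (log2 fold change 0.74, adjusted p = 2.59e-04). The immune markers summed to between 5.75 and 6.23 CPM in M1P and between 6.87 and 7.15 CPM in L1P, with 2 of 6 markers at 1 CPM or more in both groups, Adgre1 at 0 in all 4 libraries and Ptprc at no more than 0.0709 CPM. Lyz2, a lysozyme of myeloid cells, rose from 0.276 and 0.166 CPM in E1KD to 3.23 and 2.87 CPM in M1P (adjusted p = 3.19e-10) and was at 4.57 and 4.74 CPM in L1P (adjusted p against M1P 4.25e-04, not called), while Csf1r fell from E1KD to M1P (adjusted p = 8.97e-06). The endothelial markers did not exceed 0.628 CPM in sum in M1P or 0.530 CPM in L1P, and the part of host cells in these results was not tested. Notch2 was at 48.2 and 48.9 CPM in M1P (log2 fold change against E1KD -0.50, adjusted p = 7.87e-04; -0.32 with equal sums). In L1P it was at 56.6 and 56.1 CPM (adjusted p against M1P 0.151).

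Platr18 silencing went with more Notch1. The E1KD Platr18 KD libraries had 45.4 and 45.5 CPM, the highest Notch1 values among the libraries of the second kind, against 24.5 and 24.9 CPM in E1KD SCR (log2 fold change 0.85, SE 0.12, adjusted p = 2.18e-04, under the limit of the call). With Platr18 overexpression Notch1 was at 16.7 and 18.0 CPM in clone 12 and 15.1 and 16.8 CPM in clone 16, below both Empty vector libraries (log2 fold change of the clones -0.36, adjusted p = 0.0221). For Notch2 the log2 fold change was -0.26 (SE 0.09, adjusted p = 0.0750) after Platr18 silencing and -0.01 (SE 0.08, adjusted p = 0.951) with overexpression. The ratio of Notch2 to Notch1 per kilobase was 1.77 and 1.75 in E1KD SCR and 0.787 and 0.811 in E1KD Platr18 KD, the only libraries under 1.

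**Figure D3:**
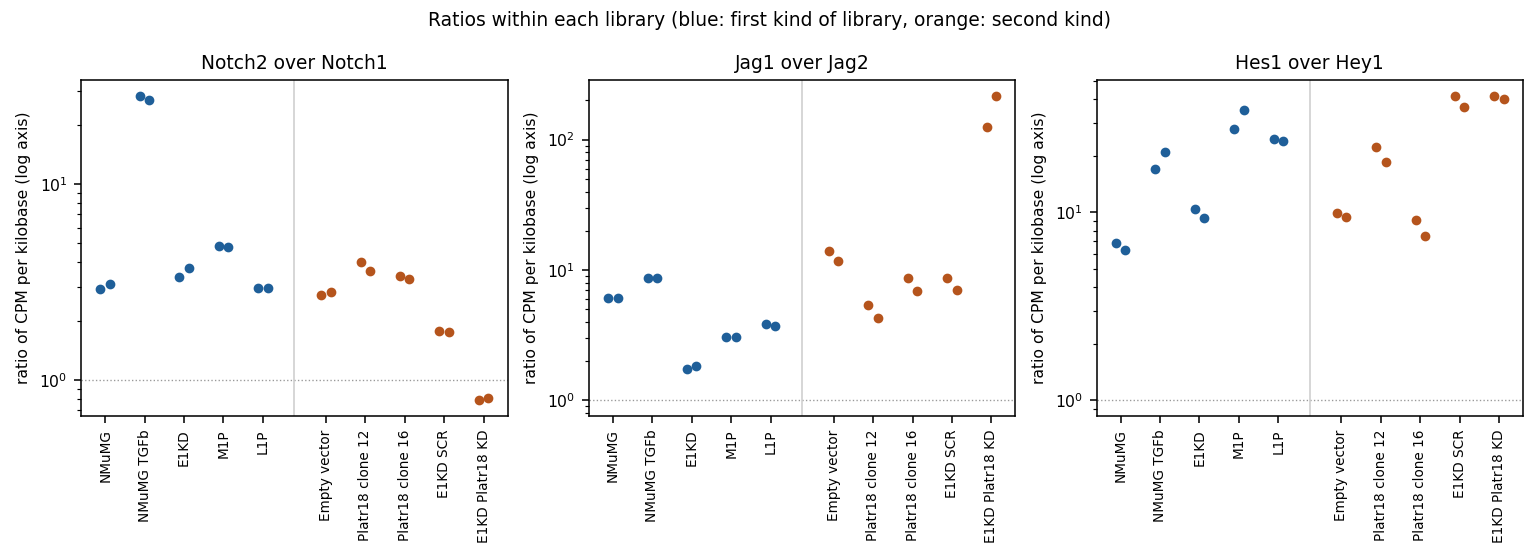
Ratios of CPM per kilobase within each library (log axes) for Notch2 over Notch1, Jag1 over Jag2 and Hes1 over Hey1; each point is a library, blue for the first kind and orange for the second. Notch2 over Notch1 is highest with TGFβ (28.3 and 26.9) and lowest with Platr18 silencing (0.787 and 0.811), where Jag1 over Jag2 is highest (124 and 218).

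The order of Notch1 levels in the first kind of library ran from NMuMG through E1KD, L1P and M1P to NMuMG TGFb, and E1KD and L1P overlapped and did not pass a test (adjusted p = 0.883). In the second kind it ran from E1KD Platr18 KD through E1KD SCR, Empty vector and clone 12 to clone 16, and only the step from E1KD Platr18 KD to E1KD SCR had an adjusted p under 0.05. For Notch2 the first kind ran from NMuMG TGFb through NMuMG, E1KD and L1P to M1P, of which L1P and M1P did not differ by the test (adjusted p = 0.151).

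The Jagged ligands were called in different comparisons. In E1KD they lay on opposite sides of NMuMG, and both were lower in M1P than in E1KD. Jag1, the main Jagged ligand of epithelium and vessels, was at 59.8 and 62.3 CPM in NMuMG, 92.1 and 105 CPM with TGFβ, and 44.7 and 33.2 CPM in E1KD. It was thus higher than in NMuMG with TGFβ (log2 fold change 0.68, SE 0.11, adjusted p = 1.03e-04) and lower with hnRNP E1 silencing (log2 fold change -0.65, SE 0.11, adjusted p = 1.87e-04; -0.83 with equal sums), neither past the limit of the call. The direct difference between E1KD and NMuMG TGFb was called, at 2.53-fold less Jag1 in E1KD (log2 fold change -1.33, adjusted p = 7.59e-08). Jag1 followed Notch2 in the direction of both differences from NMuMG, and these together fix the direction of the direct difference.

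Jag1 also fell in the second pair of silenced lines, from 98.8 and 86.8 CPM in Empty vector to 42.4 and 44.3 CPM in E1KD SCR, 2.14-fold in the means (log2 fold change -1.08, SE 0.11, adjusted p = 2.14e-06). Without Empty vector replicate 1 the log2 fold change was -0.99 and missed the call. Both Platr18 clones had less Jag1 than Empty vector, with 47.8 and 47.1 CPM in clone 12 and 49.4 and 53.9 CPM in clone 16 (log2 fold change -0.89, SE 0.10, adjusted p = 8.68e-06, not called). All 8 other libraries of the second kind were therefore below both Empty vector libraries. In E1KD Platr18 KD Jag1 was at 44.3 and 42.4 CPM, with a log2 fold change of -0.00 against E1KD SCR (SE 0.11, adjusted p = 1.00). The values were 28.8 and 28.6 CPM for M1P (log2 fold change against E1KD -0.41, adjusted p = 7.61e-03; -0.24 with equal sums) and 34.9 and 33.7 CPM for L1P.

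Jag2, the second Jagged ligand, rose in E1KD to 23.3 and 16.4 CPM from 8.85 and 9.28 CPM in NMuMG, 2.19-fold in the means (log2 fold change 1.03, SE 0.16, adjusted p = 9.31e-05). This call depended on the scaling and on single libraries: the log2 fold change was 0.87 with equal sums, 0.79 without E1KD replicate 1 and 1.00 without NMuMG replicate 1, none of them called. The groups did not overlap. Within libraries Jag1 exceeded Jag2 per kilobase 6.15 and 6.11 times in NMuMG and 1.75 and 1.84 times in E1KD, a ratio that the scaling does not touch. In M1P Jag2 was back at 8.55 and 8.51 CPM (log2 fold change against E1KD -1.11, adjusted p = 9.91e-05; -0.95 with equal sums and -0.87 without E1KD replicate 1, not called) and at 8.28 and 8.31 CPM in L1P. With only the compared groups fitted, both calls of Jag2 were also lost. With TGFβ it was at 9.648 and 11.03 CPM (adjusted p = 0.416).

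In the second pair of lines Jag2 was not higher with hnRNP E1 silencing, at 4.40 and 5.75 CPM in E1KD SCR against 6.41 and 6.76 CPM in Empty vector (log2 fold change -0.33, adjusted p = 0.120). The difference between the effects in the 2 pairs was called (1.36, SE 0.23, adjusted p = 6.54e-04). In that contrast 2 members were called in the positive direction and 0 in the negative, against 2.57% and 0.947% of all tested genes (3.51% called), and 3 members and 21.3% of all tested genes had an adjusted p under 0.05. The Jag2 call in it was lost with only the compared groups fitted. Platr18 silencing then gave the lowest Jag2 of the second kind of library, 0.326 and 0.177 CPM in E1KD Platr18 KD, which corresponds to 48 and 26 reads. That was 20.2-fold less than in E1KD SCR in the means (log2 fold change -2.27, SE 0.16, adjusted p = 1.93e-07), and the call held under every alternative tried. In the clones that overexpress Platr18, Jag2 was at 8.10 and 9.97 CPM in clone 12 and 5.20 and 7.08 CPM in clone 16, which overlapped Empty vector (log2 fold change 0.15, adjusted p = 0.496).

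Of the targets, Hey1 was called in 3 of the 8 comparisons and Hes1 in none. Hey1 fell with TGFβ from 4.85 and 5.15 CPM to 1.27 and 1.12 CPM, 4.19-fold (log2 fold change -1.45, SE 0.09, adjusted p = 6.60e-09). Hes1 was at 13.1 and 14.1 CPM with TGFβ against 20.3 and 19.7 CPM, a difference under the limit of the call (log2 fold change -0.52, SE 0.08, adjusted p = 6.47e-05). Both targets and Notch1 were thus below NMuMG in the libraries with TGFβ, while Notch2, Notch4 and Jag1 were above it.

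Hey1 was a little lower in E1KD, at 3.78 and 3.57 CPM (log2 fold change -0.36, adjusted p = 4.73e-03), and fell in M1P to 1.13 and 0.886 CPM, 3.63-fold below E1KD (log2 fold change -1.22, SE 0.09, adjusted p = 1.80e-07). L1P had 1.61 and 1.63 CPM (log2 fold change against M1P 0.38, adjusted p = 0.0101). In E1KD SCR Hey1 fell to 1.31 and 1.68 CPM from 5.52 and 5.37 CPM in Empty vector, also 3.63-fold (log2 fold change -1.37, SE 0.09, adjusted p = 2.76e-08). The effect of hnRNP E1 silencing on Hey1 differed between the 2 pairs of lines by 1.01 (SE 0.13, adjusted p = 7.36e-05), a call that was lost with equal sums (0.79), without NMuMG replicate 1 (0.98), without E1KD replicate 1 (0.98), without Empty vector replicate 1 (0.99) and without E1KD SCR replicate 1 (0.90). Platr18 silencing left Hey1 at 1.419 and 1.498 CPM (log2 fold change -0.02, SE 0.09, adjusted p = 0.946).

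The Platr18 clones disagreed on Hey1. Clone 12 had 1.86 and 2.25 CPM and clone 16 4.46 and 5.08 CPM, 2.32-fold apart (log2 fold change 0.92, SE 0.09, adjusted p = 2.62e-06, under the limit of the call). Against Empty vector alone, the log2 fold change was -1.08 in clone 12 (adjusted p = 6.21e-07, called) and -0.16 in clone 16 (adjusted p = 0.252). The clones averaged together gave -0.62 (adjusted p = 5.33e-05), a value that describes neither clone.

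Hes1 kept within 13.1 to 23.8 CPM in the first kind of library and 22.98 to 36.83 CPM in the second. In E1KD it was at 23.8 and 20.2 CPM, which overlapped NMuMG (log2 fold change 0.13, adjusted p = 0.196), and in E1KD SCR at 33.3 and 36.8 CPM, which overlapped Empty vector (log2 fold change 0.13, adjusted p = 0.232). Its log2 fold change in E1KD turned to -0.05 with equal sums. Hes1 was called in no comparison by limma, with an unadjusted p under 0.05 in 4 of the 8 and an adjusted p under 0.05 in 3. The latter were TGFβ, the clones against Empty vector (log2 fold change -0.37, adjusted p = 1.13e-03) and L1P against M1P (log2 fold change 0.31, adjusted p = 0.0156). Hes1 exceeded Hey1 per kilobase 6.90 and 6.32 times in NMuMG, 17.1 and 20.9 times with TGFβ, 27.9 and 35.1 times in M1P and 41.8 and 36.1 times in E1KD SCR.

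Jag2 and Hey1 were each called in 3 of the 8 comparisons. Over the 20 libraries, each value centred on the mean of its kind, the genes with the pattern most like Jag2 were Rbsn (Pearson r = 0.918), Mettl2 (0.897) and RP23-92G13.4 (0.894). Those most like Hey1 were Keap1 (0.959), Thra (0.943) and Zfp1 (0.911). These correlations describe libraries that share duplicates and groups, and no test was attached to them.

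Of 53 other genes of the pathway, listed by role, 43 were tested. With TGFβ 5 rose and 4 fell, where 5.85% of all tested genes rose and 7.66% fell, with a median log2 fold change of 0.25 against -0.08 over all tested genes. The ligand Dll4, known from sprouting vessels, rose from 0.142 and 0.0566 CPM, which is 8 and 3 reads, to 3.74 and 4.85 CPM (log2 fold change 2.26, adjusted p = 6.90e-12), and Dtx4, a Deltex ubiquitin ligase, from 26.3 and 26.8 CPM to 84.6 and 91.7 CPM (log2 fold change 1.70, adjusted p = 5.73e-10). Neurl1b, a Neuralized ubiquitin ligase that promotes ligand endocytosis, fell from 104 and 106 CPM to 5.67 and 5.35 CPM (log2 fold change -4.03, SE 0.07, adjusted p = 1.48e-14). None of the 9 genes for ADAM proteases and gamma-secretase was called in any of the 8 comparisons by limma, with between 1 and 7 of them at an unadjusted p under 0.05, and 6 of the 9 had an adjusted p under 0.05 in E1KD against NMuMG and 4 in NMuMG TGFb against NMuMG. Of all tested genes, 56.6% and 55.4% had an adjusted p under 0.05 in those 2 comparisons. At least 18.5% had an unadjusted p under 0.05 in each of the 8.

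In E1KD 4 of the 43 rose and 1 fell, where 6.44% of all tested genes rose and 2.99% fell. The largest changes were of Dlk2, a noncanonical Delta-like protein, from 2.34 and 2.15 CPM to 21.1 and 16.5 CPM (log2 fold change 2.60, adjusted p = 8.67e-10), Neurl1a, the relative of Neurl1b, from 0.443 and 0.339 CPM to 7.62 and 6.34 CPM (log2 fold change 2.52, adjusted p = 4.49e-11), and Poglut1, which adds glucose to the EGF repeats of Notch, from 6.64 and 5.98 CPM to 24.9 and 20.8 CPM (log2 fold change 1.71, adjusted p = 3.21e-10). Dlk2 and Poglut1 also rose in E1KD SCR against Empty vector, by 1.70 and 1.80 on the log2 scale (adjusted p = 1.55e-07 and 2.57e-10), where 3 of the 43 rose and 1 fell, against 2.91% and 3.07% of all tested genes. The third gene that rose there was Dtx3l, another Deltex ligase (log2 fold change 1.26, adjusted p = 1.40e-07). Dlk2 fell in M1P to 4.10 and 4.22 CPM (log2 fold change against E1KD -1.93, adjusted p = 6.59e-08). It was the only 1 of the 43 called there, where 1.16% of all tested genes rose and 2.43% fell (3.59% called). Poglut1, unlike Dlk2, was at 32.9 CPM in both M1P libraries. With only the compared groups fitted, the calls of Poglut1 in E1KD and of Dlk2 in M1P were lost.

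**Figure D4:**
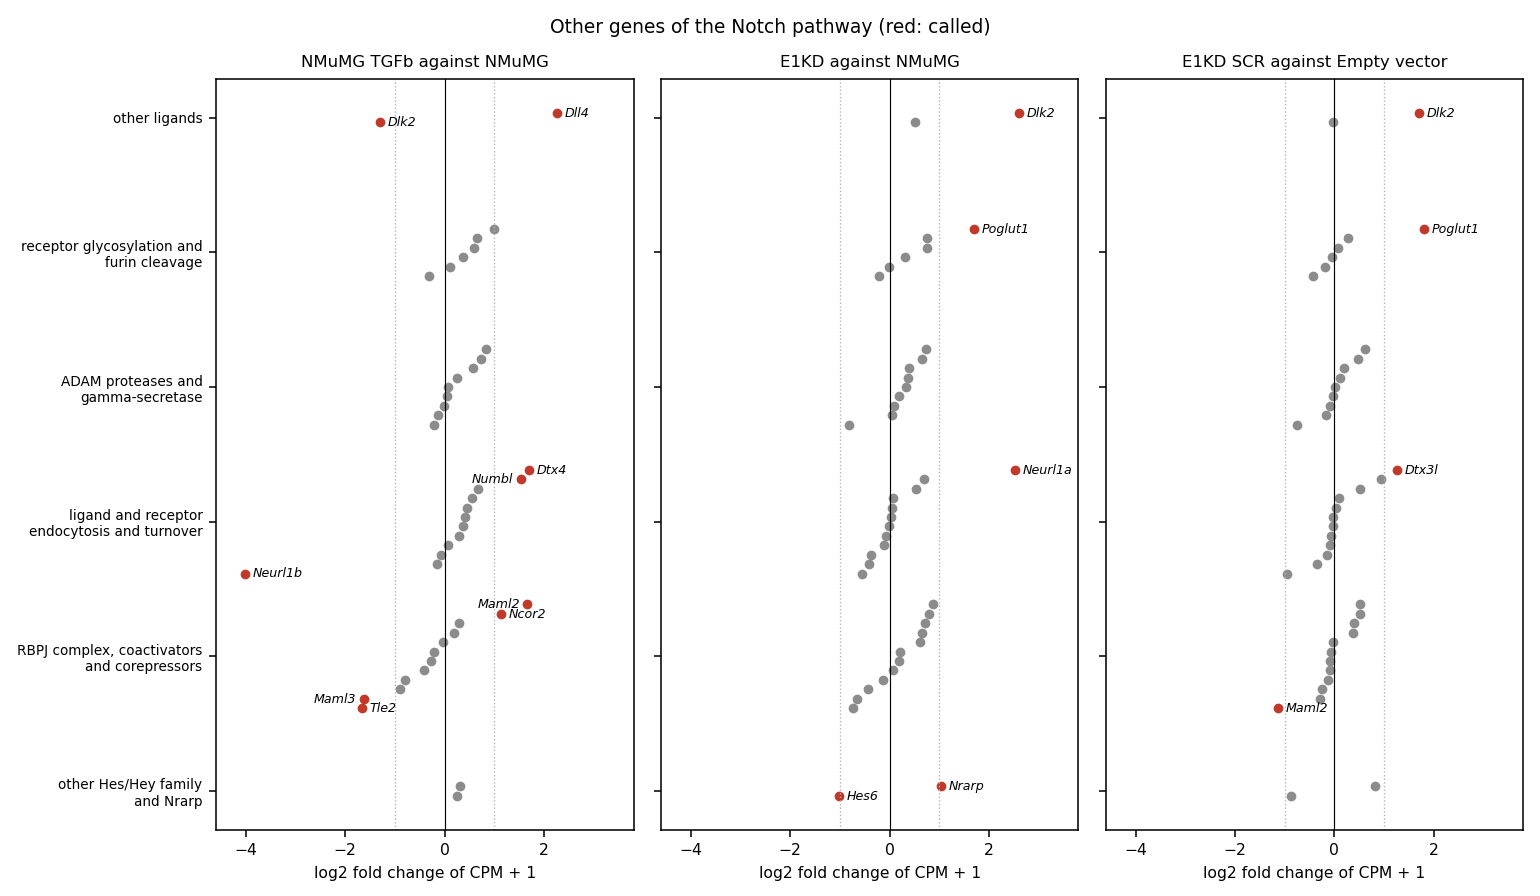
Log2 fold changes of CPM + 1 for the 43 other tested genes of the pathway, grouped by role, in 3 comparisons; each point is a gene, red and named where called, and dotted lines mark a log2 fold change of 1 in size. Neurl1b with TGFβ (-4.03) is farthest from 0, and Dlk2 and Poglut1 are to the right in both comparisons of hnRNP E1 silencing.

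Between the Platr18 clones 3 of the 43 other pathway genes were called, against 4.38% of all tested genes, and 1 in the averaged clones against Empty vector, against 1.46%. Poglut1 was at 9.51 and 8.84 CPM in clone 12, 5.88 and 5.82 CPM in Empty vector, and 0.0693 and 0.0279 CPM in clone 16, which is 5 and 2 reads. The log2 fold change between the clones was -3.28 (SE 0.08, adjusted p = 1.05e-12), and the call of the averaged clones against Empty vector (-1.07, adjusted p = 6.72e-08), the only 1 of the 43 there, turned to 0.57 for clone 12 alone. Of the 3 called between the clones, 1 was higher in clone 16 and 2 were lower. Hes6, a Hes relative that antagonizes Hes1, was higher in clone 16, with 18.7 and 19.9 CPM against 5.20 and 5.46 CPM (log2 fold change 1.68, adjusted p = 9.76e-10), and Dlk2 lower, with 0.208 and 0.126 CPM against 2.21 and 2.76 CPM (log2 fold change -1.58, adjusted p = 4.69e-07). No other gene of the pathway was called by limma in L1P against M1P or after Platr18 silencing, where 1.21% and 1.48% of all tested genes were called. Of the 43, 17 and 14 had an unadjusted limma p under 0.05. At least 18.5% and 19.5% of all tested genes were under that limit too, by their shares with an adjusted p under 0.05. By that adjusted limit the counts among the 43 were 13 and 9.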

How the data were processed

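Total RNA of 20 samples was sequenced on an Illumina HiSeq2500. Per the study's methods, the authors aligned reads with Bowtie2 (2.2.5 in the submitters' processing notes, build GRCm38.p6) to the M18 mouse annotation and assigned them to genes by Partek's expectation-maximization method. The deposited values are CPM with 0.0001 added, which was subtracted here before levels were read. Library depth was read from the value of 1 read. In whole steps of it (tolerance 0.05, under 20 reads) lay 92.3% to 98.3% of low values, too few to recover counts, and a count test was not run.

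Values on the log2(CPM + 1) scale, which understates changes of low genes, were tested with limma 3.58.1 (R 4.3.3, lmFit and trended eBayes): 20 libraries, 10 group means, 10 residual degrees of freedom, two-sided tests, Benjamini-Hochberg adjustment over the 17106 genes that reached 1 CPM in 2 or more libraries. The study's own Gene Specific Analysis was not run here. Levels between genes are per kilobase of the longest protein-coding GENCODE M21 transcript. Among other pathway genes, at most 3 called ones per comparison, those with the largest log2 fold change, were named; genes most like a member were named for members called in at least 3 comparisons. Members and lists were chosen with earlier results of these data known. Groups follow the sample labels; replicate numbers were used as a block only as an alternative. Other alternatives were the pseudocount, filters, scalings, the libraries fitted, the call rule and leaving out each replicate. The table's 20 value columns all matched a sample. Figures used matplotlib 3.10.9.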

Additional observations from a re-analysis of the deposited data

Results flagged for a closer look

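Genes whose response to hnRNP E1 silencing differed between the 2 pairs of lines are given here with the test of that difference, a limma contrast of (E1KD minus NMuMG) minus (E1KD SCR minus Empty vector). For Jag2 the difference was 1.36 (SE 0.23, adjusted p = 6.54e-04), with a log2 fold change of 1.03 in the first pair and -0.33 in the second. Neurl1a, a Neuralized ligase outside the 10 genes, differed by 1.58 (SE 0.14, adjusted p = 2.08e-06), with 2.52 in the first pair and 0.94 in the second. For Hey1 it was 1.01 (SE 0.13, adjusted p = 7.36e-05), with -0.36 in the first pair and -1.37 in the second. The genes read as checks of the labels differed too. Platr18 differed by 2.99 (SE 0.13, adjusted p = 1.98e-09), with 2.87 in the first pair and -0.12 in the second. Pcbp1 differed by -1.27 (SE 0.12, adjusted p = 3.26e-06), with -4.20 in the first pair and -2.93 in the second. The pairs belong to different kinds of library and differ in the vectors they carry, which cannot be told apart from a difference between the lines.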

How the results depend on the processing

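Each count of called members was recomputed under each alternative, and no member changed direction in a call. Of 214 recomputed values of called members, 190 kept their call and 24 lost it. With a pseudocount of 0.1, 1 member was called in L1P against M1P and 1 in clone 16 against clone 12. Under a filter of 5 CPM on the mean, 1 member was called with TGFβ, 1 in M1P against E1KD, 1 in E1KD SCR against Empty vector and 1 in the contrast of the silencing effects, since Notch4 and Hey1 are not tested there. With equal sums and with median-of-ratios factors, 0 were called in E1KD against NMuMG and 1 in M1P against E1KD; Hey1 also lost its call in E1KD against NMuMG TGFb with the latter (0.83). With only the compared groups fitted, 0 were called in E1KD against NMuMG, 1 in M1P against E1KD, 1 in E1KD against NMuMG TGFb and 1 in the contrast of the effects. By adjusted p under 0.05 alone, 5 were called in E1KD, 6 with TGFβ, 5 in M1P, 4 in L1P, 4 in the clones against Empty vector, 2 after Platr18 silencing, 4 between the clones and 7 in E1KD against NMuMG TGFb. With clone 12 alone, 1 member was called and Poglut1 turned from -1.07 to 0.57.

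Leaving out 1 replicate, the counts were 0 to 1 in E1KD against NMuMG (0 without E1KD replicate 1 or NMuMG replicate 1), 1 to 3 in M1P against E1KD (1 without E1KD replicate 1), 2 to 3 with TGFβ, 1 to 2 in E1KD SCR against Empty vector (1 without Empty vector replicate 1), 0 to 1 between the clones (1 without clone 12 replicate 2) and 1 to 2 in the contrast of the effects (1 without NMuMG replicate 1 or E1KD SCR replicate 1). They were 4 to 5 in E1KD against NMuMG TGFb, and 0 in L1P against M1P, 0 in the clones and 1 after Platr18 silencing throughout. The lone library is then assumed to vary like the other groups. With TGFβ, Notch4 was at 0.99 without NMuMG replicate 1 and at 0.91 without NMuMG TGFb replicate 2.

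Genes called in all moved by over 1.5 times in E1KD against NMuMG from 1614 to 948 (mean of at least 5 CPM), 758 (compared groups only) and 1412 to 3074 (leaving out 1 replicate), and in M1P against E1KD from 614 to 329, 274 and 568 to 2021; the cause was not tested. The filter of 5 CPM on the mean left 11516 genes tested in place of 17106, so that counts under it are of fewer genes. With this filter the counts went from 207 to 115 in L1P against M1P, 249 to 127 in the clones, 253 to 139 after Platr18 silencing, 1023 to 557 in E1KD SCR, 750 to 476 between the clones and 601 to 308 in the contrast of the effects. A pseudocount of 0.1 gave 1130 in M1P and, in the same order, 465, 616, 633, 1708, 1362 and 983. With the compared groups only, E1KD against NMuMG TGFb went from 3993 to 1366, and clone 12 alone gave 624 against Empty vector. Leaving out 1 replicate gave 563 to 1779 in the contrast of the effects. Of the other pathway genes, 5 were called in E1KD, and 8, 2 and 2 with these 3 settings (pseudocount 0.1, 5 CPM filter, compared groups only). With the pseudocount, 7 were called in E1KD SCR in place of 4 and 8 between the clones in place of 3, and with equal sums Poglut1 lost its call in the averaged clones. By adjusted p alone all counts rose, to between 3157 and 12230. The replicate numbers are shared by label only, with correlations of same-numbered deviations from -0.395 to 0.287. With the replicate block, members called stayed at 1 in E1KD, 3 with TGFβ, 2 in M1P, 0 in L1P, 0 in the clones and 1 after Platr18 silencing, and genes called were 1606 in E1KD. With the numbers crossed, added after the data were seen, genes called were 3989 in E1KD against NMuMG TGFb and 249 in the clones. Depth limits Notch3, Dll1 and Heyl.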

Other observations

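Nrarp, an inhibitor of Notch signaling that Notch itself induces, was chosen for mention after its values were seen. It was listed at 0 in both clone 12 libraries. It was at 1.08 and 0.810 CPM in clone 16, at least 20.9-fold higher than the value of 3 reads per library in clone 12, and at 1.11 and 0.956 CPM in Empty vector. Nrarp was not called between the clones, where its mean log2(CPM + 1) was 0.9565 in clone 16 and 0 in clone 12, just under the limit. In E1KD it rose, to 4.63 and 4.01 CPM from 1.68 and 1.51 CPM in NMuMG. The mean log2(CPM + 1) was 2.408 and 1.375 there, a difference close to the limit of the call. E1KD SCR had 2.40 and 2.80 CPM, above both Empty vector libraries, and Nrarp was not called in that comparison.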
